A study of Macaca mulatta with 449 samples.

Results

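The medulla oblongata (MO) and the pons (PON) were compared in rhesus macaques (Macaca mulatta) from gene counts of Ribo-zero RNA-seq, a library preparation that removes ribosomal RNA and keeps the strand of the transcript. Members were chosen by their region label alone, 8 MO samples and 8 PON samples, from a count table with 1 sample for each of 51 sub-regions in each of 8 animals. Each animal therefore gave 1 sample of each region, and the labels give no treatment for any of them. All brains were dissected by the same anatomist. The animals are named by the numbers in their labels. Rhesus 4 (female, 3.2 years), Rhesus 7 (male, 4 years), Rhesus 8 (male, 3.8 years) and Rhesus 10 (female, 5 years) were young, and Rhesus 2 and Rhesus 3 (males, 10 years), Rhesus 6 (female, 10 years) and Rhesus 11 (female, 9.8 years) were mid-aged. A sample was a small block of tissue, so each region was represented by the nuclei and tracts that the block happened to hold. Total gene counts lay between 9306454 and 12448529 in MO and between 9100013 and 12987471 in PON.

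Both regions belong to the hindbrain, the part of the brain that is divided along its length by the HOX transcription factors, with more posterior HOX genes used further towards the spinal cord. The medulla holds the nuclei of the lower cranial nerves, respiratory and cardiovascular centres, catecholamine and serotonin cell groups, inhibitory interneurons that use glycine, and the inferior olive, which sends climbing fibres to the cerebellum. The pons is dominated by the pontine nuclei, glutamatergic neurons that relay cortical signals to the cerebellum as mossy fibres, together with large fibre tracts.

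One library stood apart before any comparison was made. Over the genes tested, the MO sample of Rhesus 6 had a mean Pearson correlation of 0.877 with the other MO samples (log2 of CPM plus 1, where CPM is the count scaled to a common library total), against 0.927 to 0.951 for the other 7, and its mean level of 14 pan-neuronal genes was 5.30 on the log2(CPM + 1) scale, against 8.66 to 9.60 in the other MO samples. The same sample held the highest MO level of the 13 oligodendrocyte genes found, the cells that form myelin, at 10.01 against 8.76 to 9.56. It was also highest in meningeal fibroblast genes, at 5.34 against 2.43 to 3.14. Its HOXA7 level of 7.89 CPM, above every PON sample, went with its label. In PON, the sample of Rhesus 10 was highest in oligodendrocyte genes, at 9.48 against 8.64 to 9.19, and lowest in pan-neuronal genes, at 9.38 against 9.93 to 10.18. Its mean correlation with the other PON samples was 0.970, and the lowest in PON was 0.961, in Rhesus 4. Where a count changed without Rhesus 6, both counts are given.

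**Figure D1:**
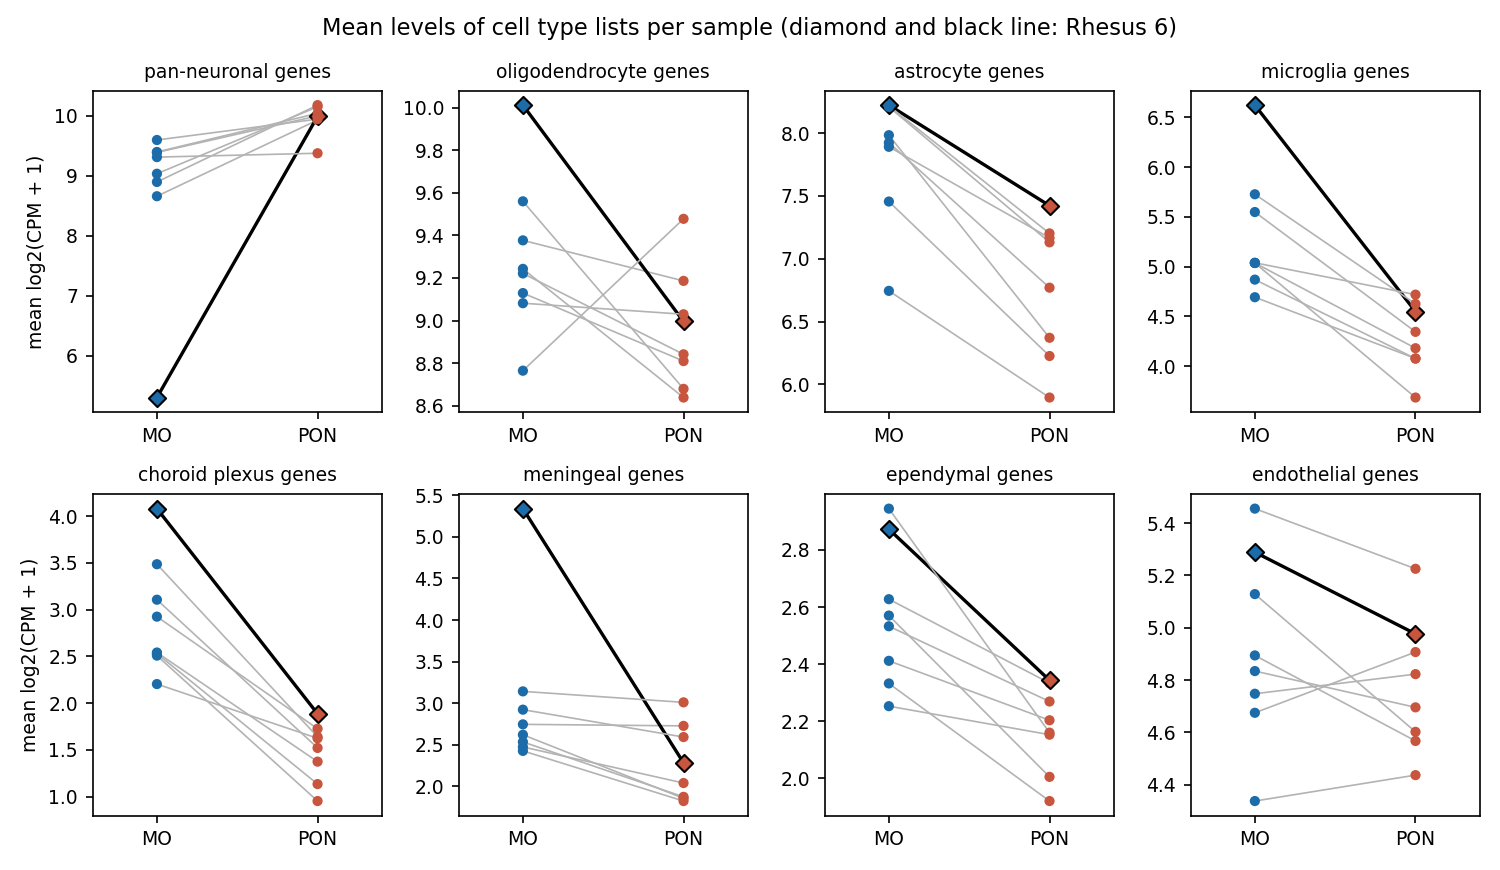
Mean log2(CPM + 1) over the genes of 8 cell type lists (vertical axes, which do not start at 0) in MO and PON, with 1 point per sample and a line joining the samples of each animal. The black diamond and line mark Rhesus 6, whose MO sample was lowest in pan-neuronal genes at 5.30 and highest in oligodendrocyte genes at 10.01.

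Of 14509 genes tested with the animal as a block, 720 (4.96%) were called higher in MO and 538 (3.71%) were called higher in PON, together 1258 (8.67%). A call needed a Benjamini-Hochberg adjusted p below 0.05 in edgeR's quasi-likelihood test and a fold change above 2. Without Rhesus 6, 670 genes (4.64%) were called higher in MO and 437 (3.02%) higher in PON, together 1107 (7.66%) of 14455 tested. With the transcript integrity score of the authors as a covariate, the counts fell to 381 and 331, and with the mean oligodendrocyte level they were 523 and 290. The median log2 fold change over all tested genes was 0.02. In tissue samples such as these, fewer cells of a type and less RNA per cell cannot be told apart. All 8 MO samples lay above all 8 PON samples for 229 genes (1.58%), and all 8 PON samples lay above all 8 MO samples for 489 genes (3.37%). MO samples also varied more among animals. The median gene had an SD of 0.37 on the log2(CPM + 1) scale in MO and 0.27 in PON, and 0.32 against 0.27 without Rhesus 6.

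Several HOX genes were at their highest in MO and PON. HOXA4, HOXA7, HOXC6, HOXC10, HOXD4 and HOXD8 had their 2 highest means of the 51 sub-regions in MO and PON. HOXD4 averaged 51.2 CPM in MO and 35.7 CPM in PON over the whole table, and the next sub-region, the ventral tegmental area, averaged 0.984 CPM. Of the 39 HOX genes listed, 17 could be matched by symbol and 6 passed the filter on low counts. HOXA7 rose in MO, HOXC10 was called higher in PON, and the other 4 were not called.

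HOXA7, a member of the middle part of the HOX clusters, ranged from 2.10 to 20.1 CPM in MO with a median of 7.99 CPM, and from 0.481 to 1.28 CPM in PON with a median of 0.994 CPM. The groups did not overlap, and the MO samples of Rhesus 7, Rhesus 8 and Rhesus 10 were the low ones, at 2.80, 3.03 and 2.10 CPM. The log2 fold change of MO over PON was 2.86 ± 0.34 (SE), with an adjusted p of 0.000273 by edgeR's quasi-likelihood test. HOXB8, from the neighbouring and more posterior group of HOX genes, had 0 counts in all 8 PON samples and 1100 counts over the 8 MO samples, of which the MO sample of Rhesus 4 gave nearly all (87.4 CPM, against 5.27 CPM in Rhesus 11, 1.78 CPM in Rhesus 2 and at most 0.311 CPM in the others). Rhesus 4 was also the animal with the highest HOXA7. HOXD8 was low, at 0.156 to 1.48 CPM in MO and at most 0.116 CPM in PON, again without overlap.

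HOX genes of more anterior use differed little. HOXD4 had 31.6 to 61.3 CPM in MO and 25.4 to 44 CPM in PON, was higher in MO in 8 of 8 animals and had a log2 fold change of 0.50 ± 0.10, under the threshold of 1. HOXA4 had medians of 13 CPM in MO and 14.4 CPM in PON, with overlapping groups and an adjusted p of 0.437. HOXC10, by its number a more posterior gene than HOXA7, ran the other way, with 1.20 to 5.57 CPM in MO and 6.06 to 11.9 CPM in PON, no overlap and a log2 fold change of -1.42 ± 0.25 (adjusted p = 0.00233, edgeR's quasi-likelihood test). HOXC6 had medians of 0.497 CPM in MO and 1.88 CPM in PON and did not pass edgeR's test (adjusted p = 0.12), while DESeq2 called it higher in PON (adjusted p = 0.0163).

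**Figure D2:**
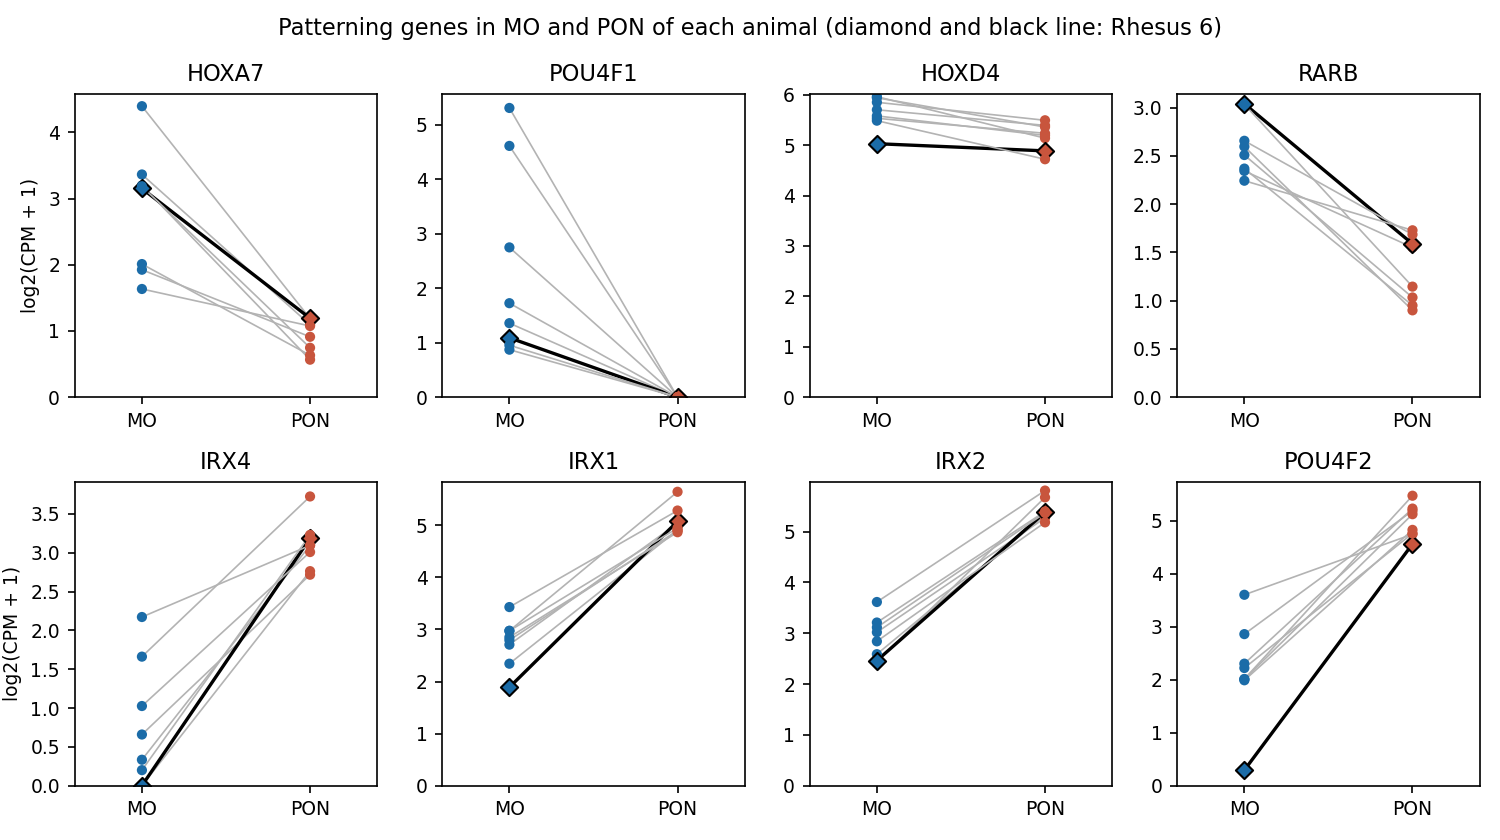
Level of 8 patterning genes as log2(CPM + 1) (vertical axes from 0) in MO and PON, with a line joining the samples of each of 8 animals and a black diamond for Rhesus 6. HOXA7, POU4F1 and RARB lay higher in MO, IRX4, IRX1, IRX2 and POU4F2 lay higher in PON, and HOXD4 overlapped.

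POU4F1, a homeodomain factor of sensory, habenular and olivary neurons, was found in every MO sample and had 0 counts in every PON sample. It reached 38.5 CPM in Rhesus 3 and 23.4 CPM in Rhesus 2, 5.71 CPM in Rhesus 8 and between 0.829 and 2.30 CPM in the other 5. The 840 MO counts against 0 put it at least 261-fold higher in MO, taking 3 counts over the 8 PON libraries as the limit that a count of 0 allows. It was too low in too many samples to pass the main filter on low counts, and the main test did not cover it. It passed a looser filter, defined below for IRX6, through its MO counts alone. There it was called higher in MO (adjusted p = 0.000273, edgeR's quasi-likelihood test), also without Rhesus 6. Its relative POU4F2 went the other way, with 0.225 to 11.2 CPM in MO, 22.6 to 43.5 CPM in PON and a log2 fold change of -3.11 ± 0.38.

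The Iroquois factors, homeodomain proteins that help to pattern the neural tube, were called in both directions. IRX1, IRX2 and IRX4 form 1 genomic cluster and IRX3, IRX5 and IRX6 the other. IRX4 was at 0 in the MO samples of Rhesus 2 and Rhesus 6, reached at most 3.51 CPM in MO (Rhesus 10) and lay between 5.58 and 12.2 CPM in PON. It did not overlap and had a log2 fold change of -3.49 ± 0.57 (adjusted p = 0.00162, edgeR's quasi-likelihood test). With transcript integrity as a covariate its adjusted p was 0.0699 in the same test. IRX1 had 2.71 to 9.78 CPM in MO against 28.2 to 49 CPM in PON, and IRX2 had 4.43 to 11.3 CPM against 35.3 to 55.1 CPM. Both were separated without overlap, with log2 fold changes of -2.49 ± 0.17 and -2.65 ± 0.15. All 3 genes had their highest mean of the 51 sub-regions in PON and their second highest in MO. IRX3 and IRX5 went the other way, with log2 fold changes of 1.34 ± 0.20 and 1.08 ± 0.19, MO medians of 8.94 and 5.71 CPM and PON medians of 3.22 and 2.24 CPM. IRX6 was low, at 0.331 to 1.56 CPM in MO and 0.0961 to 0.697 CPM in PON, and did not pass the main filter. With a looser filter (a count above 1 in at least 3 of the 16 samples, 18747 genes, 5.46% called higher in MO and 3.51% higher in PON) it was not called (adjusted p = 0.0545, edgeR's quasi-likelihood test). Without Rhesus 6 it was called higher in MO (adjusted p = 0.0450, the same test).

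Among genes of retinoic acid handling, 1 was called in each direction. CYP26B1, an enzyme that breaks down retinoic acid, had 4.83 to 15.2 CPM in MO and 44.7 to 88.2 CPM in PON, a log2 fold change of -2.93 ± 0.20. RARB, a retinoic acid receptor whose gene is itself induced by the ligand, had 3.73 to 7.21 CPM in MO and 0.865 to 2.31 CPM in PON, a log2 fold change of 1.78 ± 0.24. Neither overlapped between the regions. The receptors RARA and RARG were not called, with log2 fold changes of -0.38 ± 0.18 and 0.19 ± 0.15. Of the 28 matched HOX cofactors and patterning factors, 17 passed the filter, 4 rose in MO (RARB, IRX3, IRX5 and MEIS2), 5 were higher in PON (IRX1, IRX2, IRX4, CYP26B1 and OTX2) and the median log2 fold change was 0.17. The counts were the same without Rhesus 6. The balance between the directions depended on the filter. With the looser filter 25 were tested, with 9 higher in MO and 5 in PON, and 10 and 5 without Rhesus 6. The call of OTX2 was lost without any 1 of Rhesus 2, Rhesus 3, Rhesus 7, Rhesus 8 and Rhesus 10, with adjusted p-values of 0.0529 to 0.0744 by edgeR's quasi-likelihood test, and that of IRX5 without Rhesus 3, at a log2 fold change of 0.98.

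Transcription factors of brainstem neurons were called more often in PON among those that passed the filter. Of 18 tested, of 38 matched, 7 were higher in PON and 2 in MO, with a median log2 fold change of -0.73. Without Rhesus 6, 19 were tested, with 7 higher in PON, 3 in MO and a median of -0.54. This direction depended on the filter. With the looser filter 35 were tested, with 11 higher in MO and 7 in PON, and 12 and 7 without Rhesus 6. ZIC1, ZIC2, ZIC4 and ZIC5, zinc finger factors also used in the cerebellum, were all higher in PON. ZIC1 had 14 to 62.7 CPM in MO and 127 to 226 CPM in PON. ZIC4 had 8.64 to 45.3 CPM in MO and 93.3 to 178 CPM in PON. For both genes PON had the fourth highest mean of the 51 sub-regions, after the cerebellar vermis, the cerebellar cortex and the thalamus. ETV1 and the nuclear receptor ESRRG were also higher in PON, with log2 fold changes of -1.30 ± 0.14 and -2.37 ± 0.36. FOXP2, a forkhead factor found among others in olivary neurons, rose in MO with a log2 fold change of 2.24 ± 0.58, and was highest in Rhesus 2 and Rhesus 3, at 107 and 116 CPM, with 3.30 to 23.7 CPM in the other MO samples and 2.12 to 9.13 CPM in PON. Its call was lost without Rhesus 3 (log2 fold change 1.95, adjusted p = 0.0508, edgeR's quasi-likelihood test) and without Rhesus 11 (2.12, adjusted p = 0.0502). The fold change of ZIC5 was -1.02 and lay just inside the threshold, from -0.997 to -0.92 without Rhesus 3, Rhesus 4, Rhesus 7 or Rhesus 8, which ended its call.

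The main filter needed a minimum level in about as many samples as a region holds. It removed factors that reached this level in too few of the MO samples. Their levels are given here, and the main test did not cover them. With the looser filter LMX1B, TFAP2B, PAX8 and PAX2 were called higher in MO, with and without Rhesus 6. LMX1B, a factor of serotonin neurons and of the dorsal horn, had 181 counts over MO and 0 over PON. TFAP2B had 0.225 to 13.7 CPM in MO and at most 0.169 CPM in PON. PAX8 and PAX2, factors of inhibitory interneurons of the hindbrain and spinal cord, reached 29.4 and 17.5 CPM in the MO sample of Rhesus 4 and were below 0.4 CPM in MO of Rhesus 2, Rhesus 3 and Rhesus 6.

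Among the genes with the largest change towards MO were several neuropeptides. By a rule that took called genes with the same direction in 8 of 8 animals that averaged 1 CPM or more where they were higher, the 10 with the largest log2 fold change were DLK1, LINGO4, TAC1, SST, PENK, TRH, SCGN, CRH, NPTX1 and NTS, of 449 that met it. None overlapped between the regions, but the rule itself favoured genes that separate. Over all tested genes, all 8 MO samples lay above all 8 PON samples for 229 (1.58%). DLK1, a membrane protein of the Notch ligand family, had 5.94 to 46.1 CPM in MO and 1 count in all of PON, in Rhesus 11, against 1554 counts in MO. The ratio of summed counts was 1451, with an exact 95% interval of 260.0 to 57330 that covers counting error only. LINGO4, a leucine-rich repeat membrane protein, had 608 counts in MO and 1 in PON. SCGN, a calcium-binding protein, had 1.09 to 91.2 CPM in MO and at most 0.562 CPM in PON.

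The peptides also varied widely among the MO samples. TAC1, the substance P precursor, had 3.16 to 93.3 CPM in MO (median 49.9) and 0 to 0.577 CPM in PON (median 0.11), a log2 fold change of 7.73 ± 0.60. SST, somatostatin, had 3.91 to 219 CPM in MO (median 52.1) and 0 to 0.802 CPM in PON. PENK, the enkephalin precursor, had 10.7 to 566 CPM in MO (median 141) and 0.423 to 2.49 CPM in PON. In all 3 genes the lowest MO sample was that of Rhesus 6, and it still lay above every PON sample.

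CRH, corticotropin-releasing hormone, which is also a peptide of olivary neurons, had the widest range. It stood at 1384 CPM in Rhesus 3 and 965 CPM in Rhesus 2, 149.8 CPM in Rhesus 8, and 11.5 to 89.0 CPM in the other 5 MO samples. PON had 0.661 to 8.51 CPM. The log2 fold change was 6.16 ± 0.80, with an adjusted p of 0.000452 (edgeR's quasi-likelihood test). MO had the highest mean of the 51 sub-regions. TRH, thyrotropin-releasing hormone, was at 6.63 to 125 CPM in MO and at most 0.503 CPM in PON. NTS, neurotensin, was at 4.21 to 26.6 CPM in MO and at most 0.481 CPM in PON. Of 31 matched neuropeptide genes, 20 passed the filter, 9 rose in MO, 2 were higher in PON (CBLN4 and CBLN2) and the median log2 fold change was 1.3. Without Rhesus 6 the counts were 11 and 2. The call of CBLN2 was lost without any 1 of Rhesus 2, Rhesus 3, Rhesus 7, Rhesus 8 and Rhesus 11, with adjusted p-values of 0.0594 to 0.0972 by edgeR's quasi-likelihood test.

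**Figure D3:**
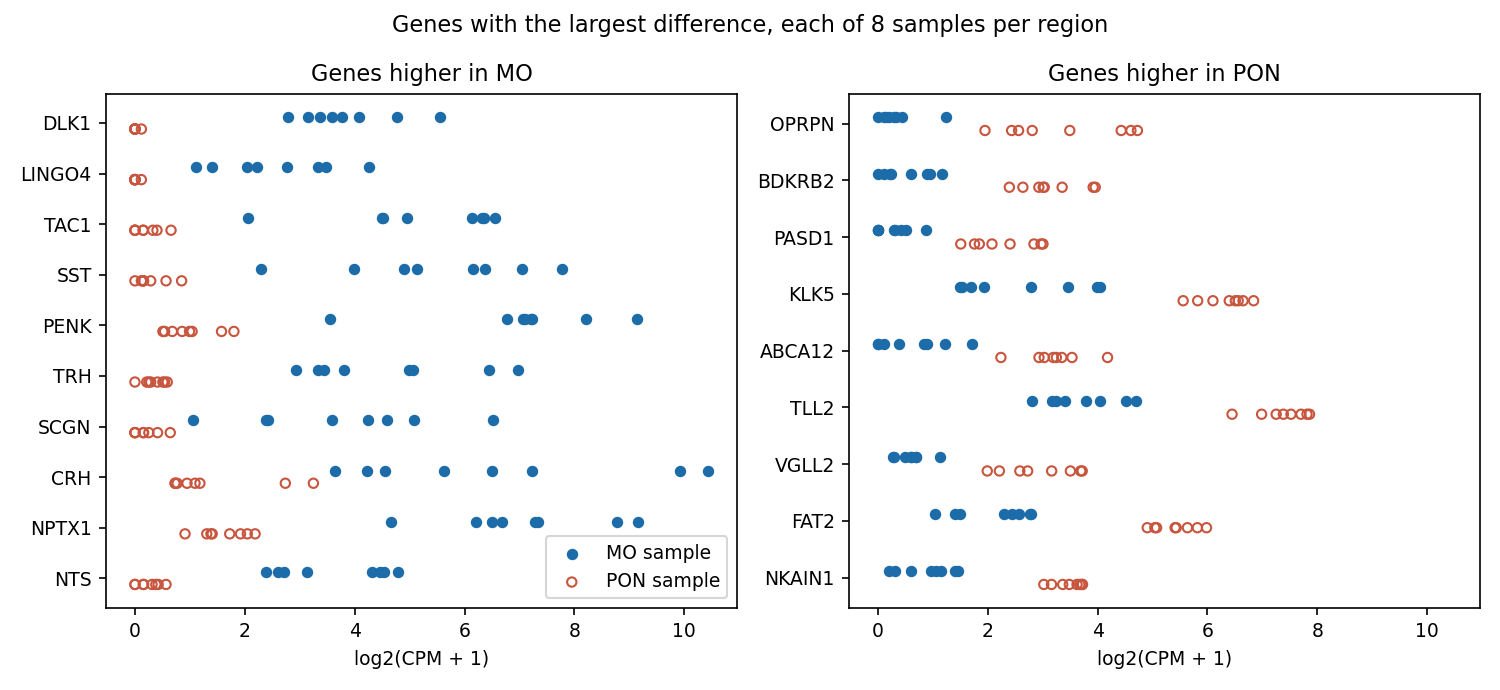
Named genes among the 10 with the largest change in each direction, with the level of each of the 8 MO samples (filled) and 8 PON samples (open) as log2(CPM + 1) on the horizontal axes. No gene shown had overlapping regions, which the choice of genes by size and direction favoured. The MO points of CRH ran from 11.5 to 1384 CPM.

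The 10 genes with the largest change towards PON included OPRPN, BDKRB2, PASD1, KLK5, ABCA12, TLL2, VGLL2, FAT2 and NKAIN1, of 389 that met the same rule. They were smaller changes than the MO genes, with log2 fold changes between -5.15 and -3.53, and most were genes of low level. TLL2, a secreted metalloprotease of the tolloid family, was the most abundant, with 6.01 to 25 CPM in MO and 86.3 to 231 CPM in PON, a log2 fold change of -3.74 ± 0.19. KLK5, a secreted serine protease best known from skin, had 1.80 to 15.4 CPM in MO and 46.1 to 114 CPM in PON. FAT2, a large cadherin of cerebellar granule cells, had 1.05 to 5.87 CPM in MO and 28.9 to 62.2 CPM in PON. OPRPN, the precursor of the peptide opiorphin, was at most 1.35 CPM in MO and 2.86 to 25.4 CPM in PON. Its log2 fold change was -5.15 ± 0.61.

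PON had the highest mean of the 51 sub-regions for OPRPN, PASD1, KLK5, ABCA12, TLL2 and VGLL2. For TLL2 the PON mean was 172 CPM and the next sub-region, the corpus callosum, averaged 41.3 CPM. For KLK5 the means were 81.1 CPM in PON and 30.1 CPM in the caudate nucleus. BDKRB2, a bradykinin receptor, was exceeded in the pituitary alone. FAT2 and NKAIN1 had higher means in 2 cerebellar sub-regions alone.

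Genes of glutamate transmission separated the regions by their vesicular transporter. SLC17A7, which loads glutamate into vesicles in cortical, pontine and granule neurons, had 2.56 to 137 CPM in MO (median 86.5) and 463 to 661 CPM in PON (median 589). The log2 fold change was -3.09 ± 0.49, with an adjusted p of 0.00133 by edgeR's quasi-likelihood test. SLC17A6, the transporter of most other brainstem glutamate neurons, overlapped, with medians of 258 CPM in MO and 436 CPM in PON, and was not called (adjusted p = 0.109). SLC17A8, the third transporter, had 0.521 to 15.4 CPM in MO and at most 0.401 CPM in PON, and did not pass the main filter. GRM8, a presynaptic glutamate receptor, had 2.03 to 32.5 CPM in MO and 87.5 to 122 CPM in PON. GRM2 was also higher in PON, and of 9 tested members of this list 3 were higher in PON and none in MO, with a median log2 fold change of -0.33. Without Rhesus 6 these counts were the same and the median was -0.10.

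Inhibitory transmission went the other way. Of 11 glycine and GABA neuron genes tested, 6 rose in MO and 1, the glycine receptor subunit GLRB, was higher in PON. The median log2 fold change was 1.3, and without Rhesus 6 the counts were 6 and 0. The call of GLRB, at a log2 fold change of -1.15 ± 0.34, was also lost without any 1 of Rhesus 2, Rhesus 3, Rhesus 4 and Rhesus 11, with adjusted p-values of 0.0545 to 0.0819 by edgeR's quasi-likelihood test, and without Rhesus 6 it was -0.88. SLC6A5, the neuronal glycine transporter that defines glycinergic neurons, had 47, 87.5 and 51.6 CPM in MO of Rhesus 7, Rhesus 8 and Rhesus 10, 13.8 and 19.6 CPM in Rhesus 4 and Rhesus 11, and 0.601 to 3.55 CPM in Rhesus 2, Rhesus 3 and Rhesus 6. PON had 0 to 4.63 CPM, a range that held the MO samples of Rhesus 2, Rhesus 3 and Rhesus 6. The log2 fold change was 4.44 ± 0.93 (adjusted p = 0.00602, edgeR's quasi-likelihood test). With transcript integrity as a covariate it was 1.57 and not called, with an adjusted p of 0.477 in the same test. MO had the highest mean of the 51 sub-regions.

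SLC32A1, the vesicular transporter of GABA and glycine, followed the same animals. It had 128 CPM in MO of Rhesus 4, 110.3, 92.4 and 76.6 CPM in Rhesus 8, Rhesus 10 and Rhesus 7, 32.4 CPM in Rhesus 11 and 1.5 to 8.18 CPM in the other 3, against 1.13 to 3.37 CPM in PON. GAD2, which makes GABA, had 88.0 to 238 CPM in the first 5 of these MO samples and 5.11 to 19.1 CPM in the other 3, against 4.42 to 25.9 CPM in PON. The MO samples of Rhesus 2, Rhesus 3 and Rhesus 6 were therefore within or close to the PON range for these genes.

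SLC18A2, TPH2 and DBH, genes of serotonin and noradrenaline neurons, were near 0 in PON. The labels do not record which nuclei the PON blocks held, so this describes the blocks and not the whole pons. SLC18A2, the vesicular monoamine transporter, had 1.04 to 18.7 CPM in MO and at most 0.551 CPM in PON, with a log2 fold change of 4.30 ± 0.42 and no overlap. TPH2, which starts serotonin synthesis, had 45.4 CPM in MO of Rhesus 8, 11.7 CPM in Rhesus 3 and 0.260 to 6.06 CPM in the other 6, against at most 0.331 CPM in PON. DBH, which makes noradrenaline, had 0.376 to 15.0 CPM in MO and 3 counts in all of PON against 547 in MO. It had the highest mean of the 51 sub-regions in MO. Of 12 matched genes of this list, 6 passed the main filter and 2 rose in MO. None was higher in PON, and without Rhesus 6, 8 were tested and 4 rose in MO. SLC22A3, an uptake transporter of monoamines, was the other of the 2, with a smaller log2 fold change of 1.14 ± 0.18. With the looser filter 12 genes of this list were tested. Of these, 8 rose in MO, with and without Rhesus 6, and none was higher in PON.

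Of 4 cholinergic and motor neuron genes tested, 1 rose in MO (PRPH) and 2 were higher in PON (RET and CALCB), with a median log2 fold change of -0.39. With the looser filter 8 were tested, with 3 higher in MO and 2 in PON. CALCB, a calcitonin gene-related peptide, had a log2 fold change of -1.15 ± 0.28 and was not called without Rhesus 4 (-0.97) or without the animal as a block (-0.99). CHAT, which makes acetylcholine, had 220 counts over the MO samples and 0 over PON, at least 68.5-fold higher. SLC18A3, the vesicular acetylcholine transporter, had 22.8, 13.3 and 7.17 CPM in MO of Rhesus 8, Rhesus 7 and Rhesus 10, at most 3.03 CPM in the others and 1 count in all of PON. PRPH, the peripherin filament of motor and sensory neurons, had 4.69 to 54.4 CPM in MO and at most 4.09 CPM in PON, with a log2 fold change of 4.02 ± 0.54. RET, a receptor of neurotrophic factors, was instead higher in PON, at 65.8 to 110.1 CPM against 13.2 to 39.1 CPM.

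**Figure D4:**
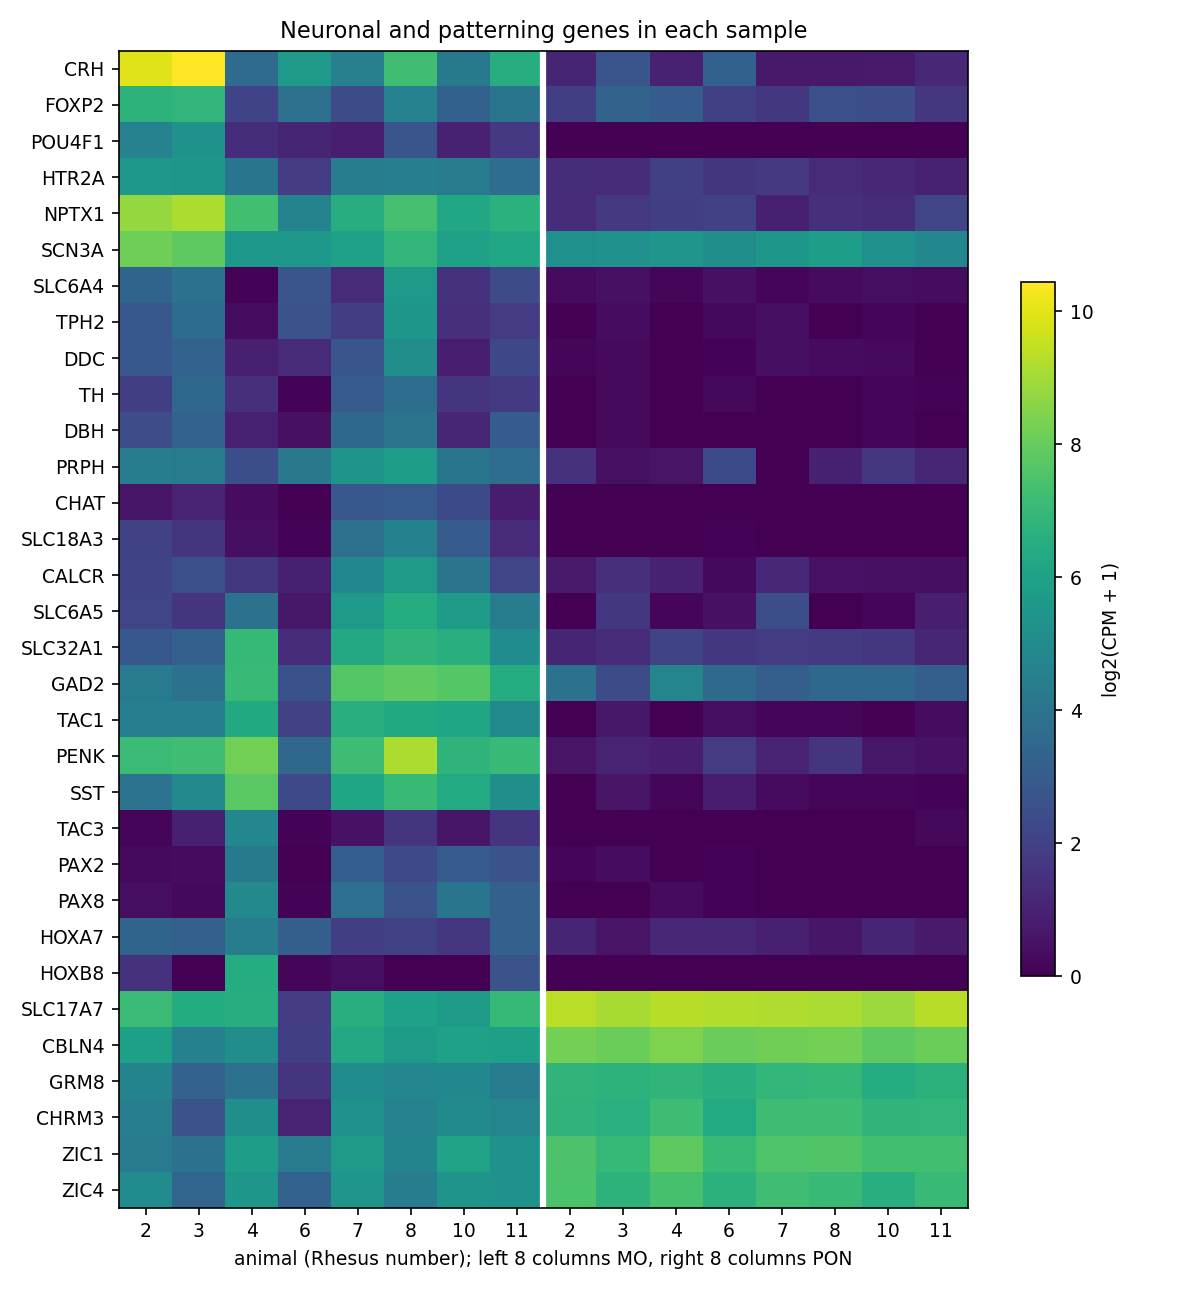
Level of 32 genes (rows) in each of the 16 samples (columns, MO on the left and PON on the right, animals by Rhesus number) as log2(CPM + 1), from dark for 0 to yellow. CRH, FOXP2 and POU4F1 were highest in MO of Rhesus 2 and Rhesus 3, SLC6A5 in MO of Rhesus 7, Rhesus 8 and Rhesus 10, and HOXB8 in MO of Rhesus 4, while the PON columns varied less.

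Several neuronal genes were high in the same MO samples. POU4F1, CRH, FOXP2, NPTX1 and HTR2A were highest in Rhesus 2 and Rhesus 3, and SCN3A, a sodium channel subunit, had 283 and 229 CPM there and 46.2 to 116 CPM in the other MO samples. NPTX1, a neuronal pentraxin that clusters glutamate receptors, had 439 and 569 CPM in these animals and 24.3 to 161 CPM in the others. HTR2A, a serotonin receptor, had 45.8 and 44.4 CPM there and 2.56 to 21.5 CPM in the others, with at most 2.91 CPM in PON. CALCR, the calcitonin receptor, was highest where SLC6A5 was, at 28, 51.2 and 15.1 CPM in Rhesus 7, Rhesus 8 and Rhesus 10 and 0.902 to 4.80 CPM in the others. TAC3, the neurokinin B precursor, followed HOXB8, at 27.8 CPM in Rhesus 4 and at most 2.08 CPM elsewhere in MO. Rhesus 2 and Rhesus 3 were both males of 10 years, and Rhesus 7, Rhesus 8 and Rhesus 10 were young. By edgeR's quasi-likelihood test, unadjusted p-values for a change that differed by age stage were 0.00599 for SLC32A1 and 0.0538 for SLC6A5. By sex they were 0.00159 for NPTX1, 0.00232 for CRH and 0.0540 for HTR2A. None passed after adjustment. Which nuclei each block held is not recorded in the labels. The part of the dissection was not tested, and it cannot be told apart from age or sex here.

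Receptors and channels were called in both directions. Of 21 peptide receptors tested, 3 rose in MO and 6 were higher in PON, with a median log2 fold change of -0.50. Without Rhesus 6 the counts were 2 and 5 and the median was -0.29. The direction depended on the filter here too. With the looser filter 32 were tested, with 11 higher in MO and 6 in PON, and 12 and 5 without Rhesus 6. CRHR1, a receptor of CRH, was higher in PON, where CRH was low, with a median of 13.4 CPM against 3.38 CPM in MO. Its log2 fold change was -2.01 ± 0.40. CRHR2, another receptor of CRH, did not pass the main filter and went the other way with the looser filter. It was called higher in MO, with a log2 fold change of 2.99 (adjusted p = 0.0196, edgeR's quasi-likelihood test). Among muscarinic receptors, CHRM3 had 0.977 to 38.4 CPM in MO and 81.1 to 147 CPM in PON, CHRM2 was also higher in PON, and CHRM1 was low but higher in MO, at 1.04 to 7.61 CPM against 0.201 to 1.04 CPM. Of 20 potassium and sodium channel genes tested, 4 rose in MO and 5 were higher in PON, and without Rhesus 6 the counts were 4 and 4. KCNC2, a fast potassium channel, was higher in PON, with a median of 110.0 CPM in MO and 429 CPM in PON. The synaptic organiser CBLN4 had 2.86 to 78.0 CPM in MO and 232 to 342 CPM in PON.

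General neuronal transcripts were higher in PON, the side to which the other neuronal genes of that region were called. Of 14 pan-neuronal genes tested, 5 were higher in PON and none in MO, with a median log2 fold change of -0.92, and the mean level of the list was higher in PON in 8 of 8 animals. SNAP25, a synaptic vesicle fusion protein, had 106 to 3958 CPM in MO (median 3019) and 4437 to 10641 CPM in PON (median 7541), with a log2 fold change of -1.70 ± 0.50. Its call was lost without Rhesus 3, Rhesus 4 or Rhesus 11, at log2 fold changes of -1.73 to -1.62 and adjusted p-values of 0.0624 to 0.0698 by edgeR's quasi-likelihood test. With the mean oligodendrocyte level as a covariate it was -1.11 and not called, with an adjusted p of 0.158 in the same test. SYT1, a calcium sensor of synaptic vesicles, had 49.5 to 1227 CPM in MO and 1448 to 2416 CPM in PON, and its adjusted p with that covariate was 0.0554 (edgeR's quasi-likelihood test). Without Rhesus 6 the counts were still 5 and 0 and the median was -0.56. The part of the general neuronal level in the genes higher in PON was not tested.

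**Figure D5:**
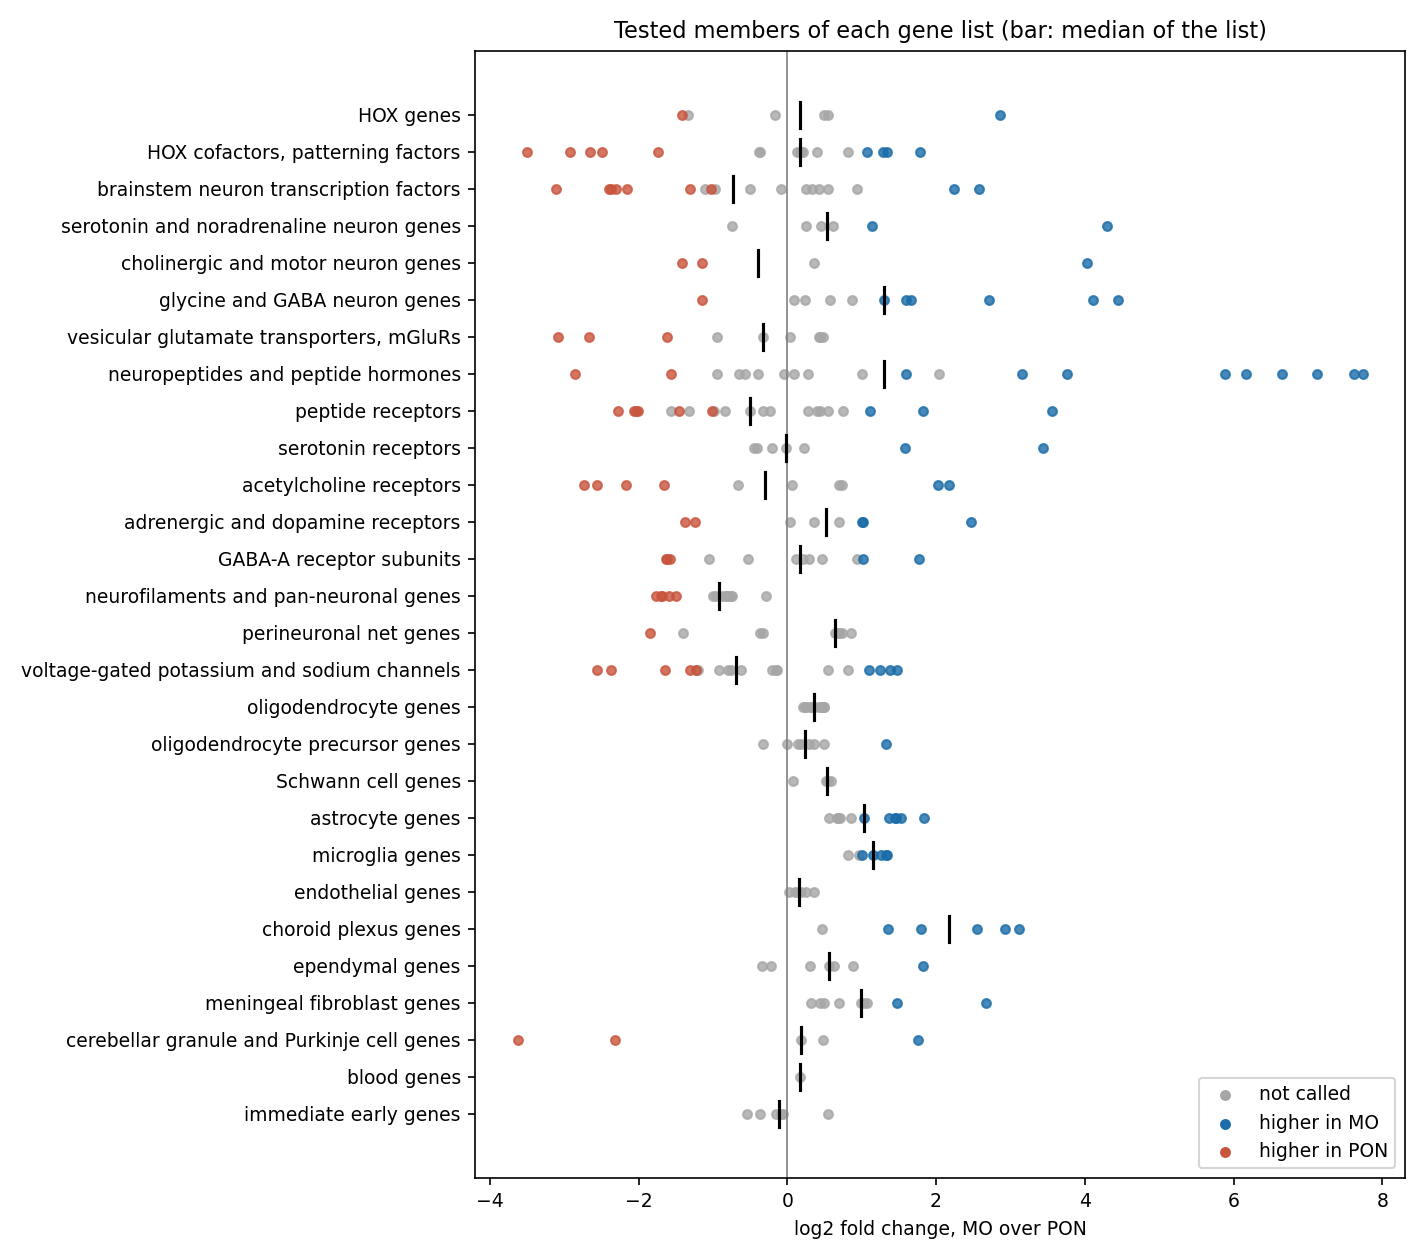
The log2 fold change of MO over PON (horizontal axis) of every tested member of 28 gene lists, with genes called higher in MO in blue, genes called higher in PON in red, genes not called in grey and a bar at the median of each list. Neuropeptides reached furthest towards MO, pan-neuronal genes lay below 0 with a median of -0.92, and no oligodendrocyte gene was called.

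Astrocyte, microglia and choroid plexus genes were called higher in MO and not in PON. Of 11 astrocyte genes tested, 6 rose in MO and none in PON, with a median log2 fold change of 1.03, and without Rhesus 6 the counts were 5 and 0. GFAP, the astrocyte filament, had 2889 to 8806 CPM in MO (median 4012) and 525 to 1974 CPM in PON (median 1384), without overlap and with a log2 fold change of 1.83 ± 0.22. AGT, angiotensinogen, which hindbrain astrocytes are known to make, had 459 to 1034 CPM in MO and 158 to 359.7 CPM in PON. Of 7 microglia genes 5 rose in MO, and 3 without Rhesus 6. The complement gene C1QC had 22.6 to 62.8 CPM in MO and 5.62 to 21.3 CPM in PON.

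Choroid plexus genes, from the tissue that makes cerebrospinal fluid and lies in the roof of the fourth ventricle, were higher in MO in 8 of 8 animals as a list, with 5 of 6 tested genes called and the same count without Rhesus 6. TTR, its main secreted protein, had 10.1 to 244 CPM in MO and 1.83 to 15.8 CPM in PON, and Rhesus 6 and Rhesus 8 were the high MO samples, at 244 and 130.0 CPM. Of the 9 meningeal fibroblast genes, FMOD and IGF2 rose in MO with and without Rhesus 6, though the call of IGF2 was lost without Rhesus 4 (adjusted p = 0.0622, edgeR's quasi-likelihood test) or Rhesus 11 (adjusted p = 0.0570), and the list ranged from 2.43 to 5.34 in MO and from 1.82 to 3.01 in PON on the log2(CPM + 1) scale. Of 7 ependymal genes tested, 1 was called, FOXJ1, a factor of ciliated cells, which rose in MO with a log2 fold change of 1.82 ± 0.26. These values moved with MO beside the neuronal differences, and their part in the result was not tested.

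Myelin genes overlapped between the regions. Neither edgeR's quasi-likelihood test nor DESeq2 called any of the 13 oligodendrocyte genes in either direction, and 4 had an unadjusted p below 0.05 in edgeR, with a median log2 fold change of 0.36, and 0.26 without Rhesus 6. MBP, myelin basic protein, had 48688 CPM in MO of Rhesus 6 and 14819 to 40752 CPM in the other MO samples, against 15813 to 27455 CPM in PON. Without Rhesus 6 and Rhesus 10, whose MO and PON samples stood farthest from their regions in oligodendrocyte genes, 814 genes were called higher in MO and 492 higher in PON.

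The difference between MO and PON was also compared between the 4 young and 4 mid-aged animals and between the 4 females and 4 males, as an interaction in the same model. No gene passed the threshold for age stage by edgeR's quasi-likelihood test (0% of 14509), with 1234 genes at an unadjusted p below 0.05 and a smallest adjusted p of 0.131, for OSBPL3. DESeq2, the other tool run, called 58 genes for age stage. The number at an unadjusted p below 0.05 was 2130 without Rhesus 3, 770 without Rhesus 6 and 690 without Rhesus 10. No gene passed for sex, with 229 at an unadjusted p below 0.05 and a smallest adjusted p of 1, and DESeq2 called 3 genes. Without Rhesus 10, whose PON library was highest in oligodendrocyte genes, 1800 genes had an unadjusted p below 0.05 for sex in edgeR. Without Rhesus 6 and Rhesus 10 there were 1402, and without Rhesus 2 there were 141, with 0 called in each case. With 4 animals on each side, these counts do not show that the regions differed equally in all animals.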

How the data were processed

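RNA was sequenced from ribosome-depleted, directional libraries, and the authors deposited 1 table of raw read counts per gene, with no normalization or pooling. According to the labels and the methods of the study, reads were checked with FastQC 0.11.4, trimmed in poor samples with Trim Galore 0.4.4, aligned with HISAT2 2.0.5 to Mmul 8.0.1 and counted with HTSeq 0.6.1 on Ensembl 91 genes. The strand setting of the counting is not given in the sources used here, so overlapping and antisense genes may share reads. The table holds 30807 genes, of which 17572 took a symbol from the reference table and 583 from the supplementary tables of the study alone. A symbol was shared by 2462 genes.

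The 16 MO and PON samples were fitted with edgeR 4.0.16 (R 4.3.3), with filterByExpr by region, TMM normalization, the quasi-likelihood test with the animal as a block, and Benjamini-Hochberg adjusted p-values over all tested genes. Genes were called at an adjusted p below 0.05 and an absolute log2 fold change above 1. The SE is the log2 fold change divided by the square root of F. Levels are CPM (counts scaled to a common library total) from TMM-scaled libraries and list levels are means of log2(CPM + 1). They are not divided by gene length, so they compare samples and not genes. Age stage and sex were tested as interactions with region. The block pairs the regions of the same animal, whose deviations from the region means correlated at -0.09 to 0.59 over genes. Limits on a count of 0 take 3 counts over the group, and ratios with 1 to 3 counts on a side carry exact 95% intervals. The main edgeR models, for region and for its interactions with age stage and sex, were run on simulated counts with known changes before use. The simulation gave both regions the same spread for each gene and held no library that stood apart. The alternative fits were not simulated.

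The comparison, its markers and the 29 gene lists (485 genes, 100 of them with no matching symbol) were chosen with earlier results of these data known. The genes named were the markers HOXA7, POU4F1 and IRX4, the 10 named genes in each direction with the largest change among those called that had the same direction in 8 of 8 animals and averaged 1 CPM or more where they were higher, every HOX gene, up to 4 members of each list by smallest adjusted p and the members of the cell type lists. Other list members, such as FOXP2, GAD2, ESRRG, ZIC5, CRHR1, SCN3A, KCNC2, MEIS2, IRX3, IRX5, IRX6, RARA, RARG, CALCB, SLC22A3, OTX2, CBLN2 and those below the main filter, were chosen after their values were seen. The alternatives were DESeq2 1.42.0, its size factors, other filters and fold thresholds, no block, each animal left out, both animals with a library that stands apart left out, the oligodendrocyte level or the transcript integrity score of the authors as a covariate, and 1 fit of all samples of the 51 sub-regions. Some genes are not reported here. No sequences or genome positions were used here, and the transcript assembly of the authors was not used.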

Additional observations from a re-analysis of the deposited data

Results flagged for a closer look

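In each group of 8 samples, the gap between the highest or lowest sample and its nearest neighbour was divided by the range of the group, for list levels and named genes. By this measure 34 of 268 groups held a sample that stood apart, 23 in MO and 11 in PON, and chance alone gives about 1 in 20 groups. Of the 23 in MO, 18 were the sample of Rhesus 6, so they are not independent of each other.

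In the MO sample of Rhesus 6, neuronal genes stood low and Schwann cell and meningeal genes stood high. On the log2(CPM + 1) scale, the low lists were pan-neuronal genes at 5.30, the glutamate transporter and receptor list at 2.12, acetylcholine receptors at 0.79, GABA-A receptor subunits at 2.15, and potassium and sodium channels at 2.51. The high lists were Schwann cell genes at 3.38 and meningeal fibroblast genes at 5.34. Among single genes, SNAP25 at 106 CPM, SYT1 at 49.5 CPM, SLC17A6 at 23 CPM, SLC17A7 at 2.56 CPM, CBLN4 at 2.86 CPM, PENK at 10.7 CPM, TAC1 at 3.16 CPM, SSTR3 at 0.301 CPM, SLC22A3 at 9.02 CPM and CNPY1 at 0.0751 CPM stood low. IGF2 at 49.6 CPM stood high.

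Among the other MO samples, Rhesus 4 held high values of HOXB8 (87.4 CPM), LMX1B (10.3 CPM) and TAC3 (27.8 CPM) and a low value of ADRA1A (3.30 CPM), and Rhesus 7 held a high value of OPRPN (1.35 CPM). In PON, Rhesus 10 was low in pan-neuronal genes at 9.38, Rhesus 7 was high in the glutamate list at 4.90, Rhesus 6 was high in the cerebellar list at 2.12 and Rhesus 4 was low in GFAP at 525 CPM and in ADRA1A at 22.4 CPM. The remaining PON values lay a few counts above samples at or near 0. They were DLK1 and LINGO4 at 0.0847 CPM and TAC3 at 0.169 CPM in Rhesus 11, PAX2 at 0.288 CPM in Rhesus 3, PAX8 at 0.232 CPM in Rhesus 4 and SLC18A3 at 0.0802 CPM in Rhesus 6.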

How the results depend on the processing

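The 720 genes called higher in MO and 538 higher in PON stayed within 1.5 times under DESeq2 (739 and 583, with 99.1% of the calls shared), DESeq2 size factors (710 and 544), no filter (958 and 675) and the looser filter (1023 and 658). Without the block that pairs the samples of an animal they were 768 and 445, and the share higher in MO rose from 57.2% to 63.3%. Leaving out each animal gave 641 to 836 and 437 to 649. They moved more with the oligodendrocyte level as a covariate (523 and 290), the transcript integrity score as a covariate (381 and 331, with 46.5% of the calls kept), a fold above 4 (157 and 111), no fold threshold (2025 and 1838) and 1 fit of all 51 sub-regions (1450 and 598, with 70.8% higher in MO), and the causes were not tested. The interactions with age stage and sex gave 0 genes in every edgeR setting, leaving out each animal included (0 to 0), and 58 and 3 genes by DESeq2. With the oligodendrocyte level as a covariate, the uncalled log2 fold change of MBP changed sign (-0.046). Of 90 named genes tested, 83 were called. DESeq2, its size factors and both other filters ended none of these calls, leaving out an animal ended 1 to 8, dropping the block ended 5 (CALCB, CBLN2, GABRB2, GLRB and ZIC5), and the oligodendrocyte level and transcript integrity score ended 10 and 22, the former being CALCB, CBLN2, FOXP2, GABRB2, GABRG3, GLRB, IGF2, OTX2, SNAP25 and SYT1 and the latter including IRX4, SLC6A5, GAD2, CHRM1, CHRM2, KCNC2, SCN3A, SNAP25, SYT1, DRD2, SSTR3, ADRA1A, ADRA2A and HAPLN1. At this depth, genes of a few counts are limited by counting error.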

Other observations

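Receptors of peptides and monoamines that the account of MO and PON has not yet described were called in both directions. NPY1R and NPY5R, receptors of neuropeptide Y, lay between 12 and 32.5 CPM and between 6.84 and 12.3 CPM in PON, against 3.06 to 10.6 CPM and 0.376 to 5.12 CPM in MO. CCKBR, a cholecystokinin receptor, had 16.3 to 34 CPM in PON and 0.451 to 10.3 CPM in MO. SSTR3, a receptor of somatostatin, had 33.3 to 64.4 CPM in PON and 0.301 to 19.1 CPM in MO, while its ligand SST was far higher in MO. None of these 4 receptors overlapped between the regions, and their log2 fold changes lay between -2.28 and -1.46. NPY2R, also a receptor of neuropeptide Y, did not pass the main filter. With the looser filter it was called higher in MO, at a log2 fold change of 2.54 (adjusted p = 0.0200, edgeR's quasi-likelihood test). CALCRL, the receptor partner of calcitonin gene-related peptide and adrenomedullin signalling, rose in MO by 1.11 ± 0.17 on the log2 scale, which was 0.997 without Rhesus 6 and then under the fold threshold.

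Of 8 adrenergic and dopamine receptors tested, 3 rose in MO and 2 were higher in PON, and without Rhesus 6 it was 2 and 2 of 7. DRD2, a dopamine receptor, had 26.1 CPM in MO of Rhesus 4 and 0.977 to 7.5 CPM in the other MO samples, against 0.220 to 1.12 CPM in PON. ADRA2A, a noradrenaline receptor, had 2.10 to 10.6 CPM in MO and 10.6 to 20.2 CPM in PON. ADRA1A had a log2 fold change of -1.24 ± 0.21. Of 7 serotonin receptors tested, 2 rose in MO and none was higher in PON, and without Rhesus 6 it was 2 of 6.

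Subunits of the GABA-A receptor split as well, with 2 of 12 higher in MO and 3 in PON. GABRB2 was higher in PON, with a median of 32.6 CPM against 10.3 CPM in MO and overlapping groups. Its call was lost without Rhesus 3, Rhesus 4, Rhesus 7 or Rhesus 11 (adjusted p of 0.0507 to 0.0673, edgeR's quasi-likelihood test). Without the animal as a block it was also not called, at an adjusted p of 0.0758 in the same test. GABRG3 was higher in MO in 8 of 8 animals, with a median of 2.93 CPM against 1.06 CPM, and its call was lost without Rhesus 11 (adjusted p = 0.0523, edgeR's quasi-likelihood test). Of 9 perineuronal net genes, which form the matrix around fast-firing neurons, 1 was called, HAPLN1, at 32.6 to 66.0 CPM in PON and 2.10 to 32.3 CPM in MO, and without Rhesus 6 it was 2, both higher in PON.

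Cerebellar genes had no single direction. Of 5 tested, FAT2 and CNPY1 were higher in PON, and CA8, a protein of Purkinje cells that binds the inositol trisphosphate receptor, rose in MO by 1.75 ± 0.31 on the log2 scale. Among 8 oligodendrocyte precursor genes, LHFPL3 alone was called, at 9.01 to 17.9 CPM in MO and 3.52 to 7.54 CPM in PON. By edgeR's quasi-likelihood test and by DESeq2, none of 6 endothelial, 6 immediate early and 4 Schwann cell genes and of 1 blood gene tested was called, and 1, 1, 2 and 0 of them had an unadjusted p below 0.05 in edgeR.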
